A study of Homo sapiens with 8 samples.

Results

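The genes described here encode carriers that move amino acids, neurotransmitters, taurine, betaine and creatine across the plasma membrane and across the membranes of lysosomes and vesicles. They were taken by symbol as every gene of the solute carrier (SLC) families 1, 3, 6, 7, 36, 38 and 43 in the deposited tables, and no measured value was used to choose them. This gave 42 of the 16126 genes listed in any of the 3 tables. All 3 tables listed 28 of the 42, and 3 were in 2 tables. A further 8 were listed for VCaP alone (SLC1A7, SLC38A11, SLC3A1, SLC43A3, SLC6A19, SLC6A4, SLC7A14 and SLC7A4), 2 for CWR-R1 alone (SLC6A3 and SLC7A7) and 1 for C4-2B alone (SLC38A4).

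The study sequenced polyA RNA of 3 human prostate cancer lineages, each as a line sensitive to enzalutamide, a drug that blocks androgen signalling, and as a line labelled resistant to it (ENZR). C4-2B and C4-2BENZR had 2 libraries each, labelled biological replicates, and both carried a transgene for luciferase and GFP. CWR-R1, CWR-R1ENZR, VCaP and VCaPENZR had 1 library each, with no transgene named. How resistance was obtained, whether each resistant line is 1 clone, or whether drug was present at harvest is not said in the labels.

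Values are the authors' normalised reads per gene, in which 1 read was worth between 0.0473 and 0.0675 units, and reads in listed genes ranged from 14503586 to 20248655 per library. The 3 tables were normalised separately, so levels set side by side across lineages carry that limit. They also come from bulk RNA, in which fewer cells of a kind and less RNA per cell cannot be told apart. Since nothing says whether the replicates were separate cultures beyond the label, p-values measure the spread between these libraries only.

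The library labelled VCaPENZR stood apart from VCaP before any carrier was considered. Over the 12868 genes of all 3 tables its log2 levels had a Pearson correlation of 0.728 with VCaP, 0.890 with CWR-R1 and 0.940 with CWR-R1ENZR. ERG, the ETS factor that VCaP is known to overexpress, was at 428 normalised reads in VCaP and at 0.179 (3 reads) in the library labelled VCaPENZR, and HOXB13, a prostate lineage factor, was at 712 and 34.8. Over the 28 carriers of all 3 tables the correlation was 0.240 with VCaP, 0.828 with CWR-R1 and 0.909 with CWR-R1ENZR. Of 15 fibroblast, endothelial and blood markers, 5 or 6 were listed per table, and 9 or 10 were not listed. Their summed level was 37.7 to 38.5 in C4-2B and 65.9 to 67.6 in C4-2BENZR. Of 4 tested, 3 were lower and 1, COL1A1, higher (13.7 ± 1.98 to 50.8 ± 3.72, SD, n = 2). Among the lower ones HBA1 passed the filter through the C4-2B libraries alone and supports no count. LUM was at 0 in C4-2B and KDR in CWR-R1. The sum was 44.4 and 99.6 in CWR-R1 and CWR-R1ENZR, with 2 of 3 compared higher and 1 lower, and 35.6 and 48.3 in VCaP and the library labelled VCaPENZR, with 2 of 4 higher and 1 lower. All 8 listed prostate and luminal genes were expressed in C4-2B and passed the test there, 5 higher and 3 lower. In CWR-R1 6 were compared, 2 higher and 2 lower, and in VCaP 9, 2 higher and 6 lower. Beside these marker counts, 56.8% of all genes tested passed in C4-2B in either direction. Of all genes compared, 20.1% in CWR-R1 and 43.1% in VCaP were 2-fold or more apart. The part of these markers in the carriers' differences was not tested. The carriers and gene lists of this library are therefore also counted against both CWR-R1 libraries.

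As background, SLC7A11 is the light chain of the exchanger that imports cystine and exports glutamate, and SLC7A5 (LAT1) is the light chain that brings in leucine and other large neutral amino acids in exchange for glutamine. Both need the same heavy chain, SLC3A2 (CD98), to reach the cell surface. Several carriers of these families are transcribed through ATF4, the factor of the amino acid response, and the leucine and arginine they bring in signal to mTORC1 at the lysosome. Prostate cancer cells are known for LAT-type leucine uptake, with SLC43A1 (LAT3) first described as a gene abundant in prostate cancer.

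Per kilobase of exon, the carriers that led differed between the sensitive lines. In C4-2B, SLC7A5 ranked first in both libraries, at 116 and 114 normalised reads per kb, followed by SLC3A2 at 97.9 and 92.8 and the glutamine exchanger SLC1A5 (ASCT2) at 79.5 and 77.8. In CWR-R1, the sodium-coupled neutral carrier SLC38A2 ranked first at 103 per kb, with SLC1A5 at 73.1 and SLC7A5 at 63.5. In VCaP, the arginine and lysine carrier SLC7A2 ranked first at 52.6 per kb and the lysosomal proton-coupled carrier SLC36A1 came second at 47.1, while SLC7A5 stood at 0.410 and ranked 35. The heat map of levels shows these lines in adjacent columns.

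**Figure D1:**
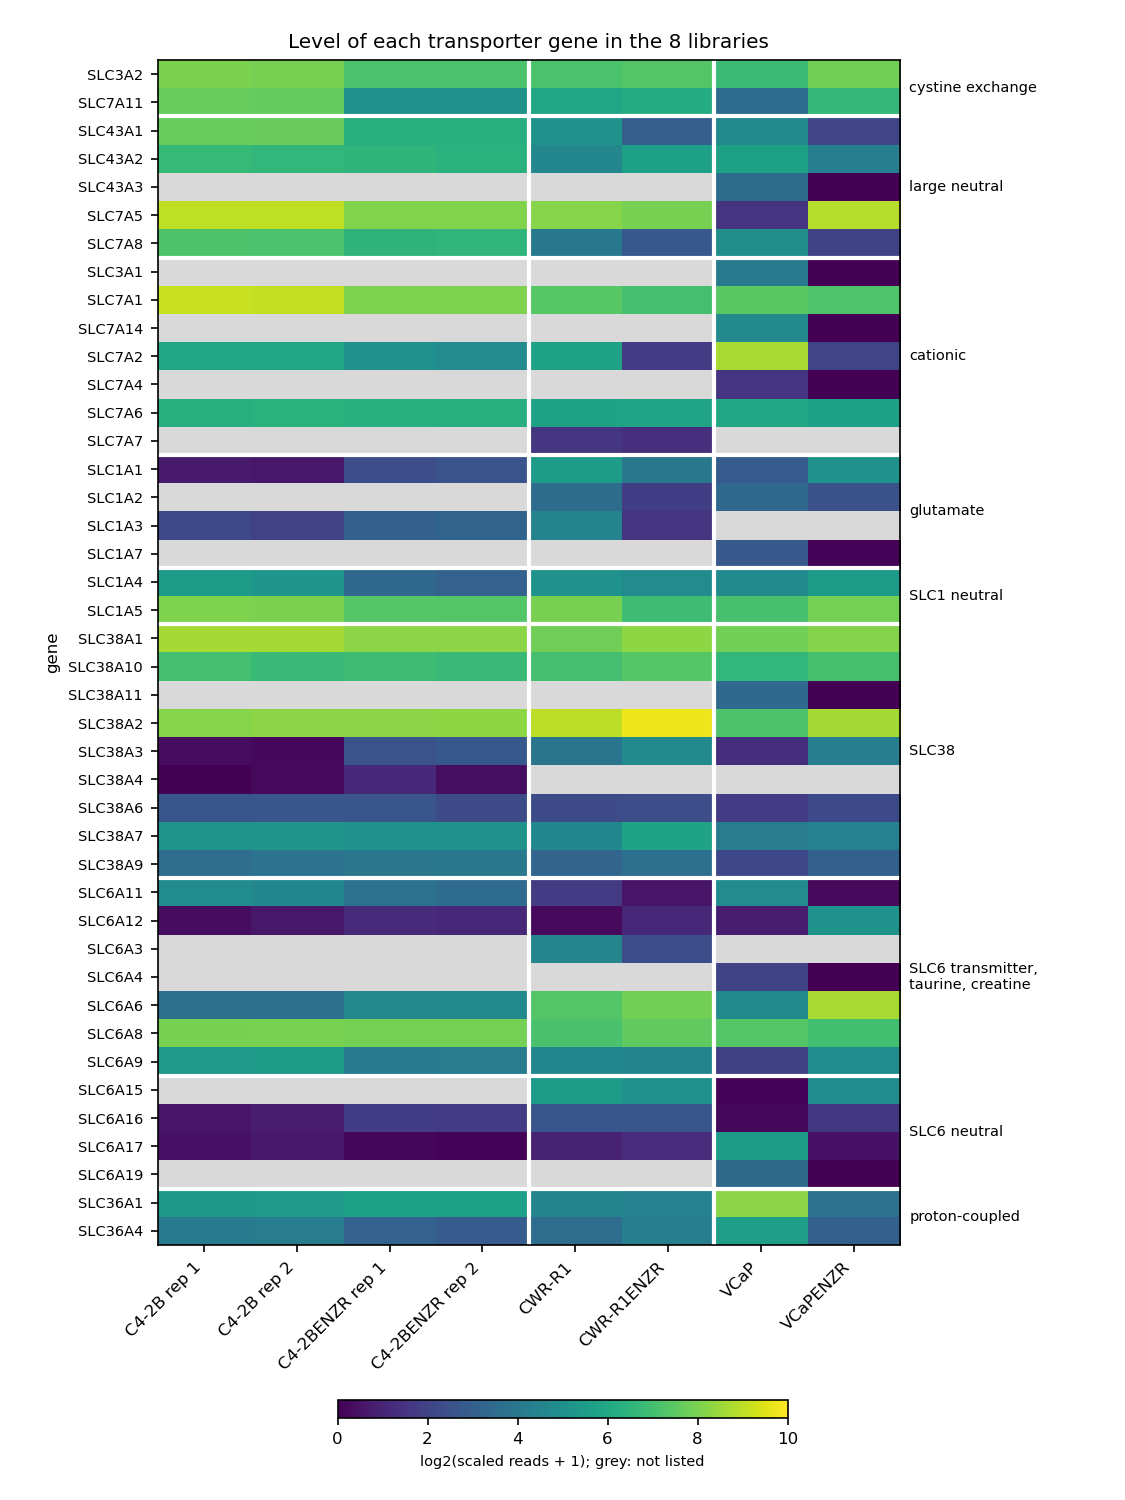
Level of the 42 carrier genes (rows, grouped by role) in the 8 libraries (columns), as log2 of normalised reads + 1 from dark (0) to yellow (10), with grey for a gene not listed in that table. The 2 replicates of each C4-2B group look alike, SLC7A5 is dark in VCaP alone, and SLC7A2 is bright in VCaP.

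In C4-2BENZR the cystine exchanger SLC7A11, the neutral exchangers SLC7A5, SLC43A1 and SLC1A4 and the arginine carrier SLC7A1 were lower than in C4-2B, and the taurine carrier SLC6A6 was higher. Of the 30 carriers listed, 28 passed the filter on low values, and 14 fell while 7 rose (limma on log2 of value + 1, Benjamini-Hochberg adjusted p below 0.05). Among all 13280 genes tested, 56.8% passed in either direction, 27.8% higher and 29% lower, beside 75% of the carriers, 25% higher and 50% lower. The median log2 difference was −0.19 over the 28 carriers and −0.000751 over all genes. With total reads as the only scaling, all genes split into 4757 higher and 2923 lower in place of 3691 and 3856. The listed carriers together took 0.362% and 0.353% of reads in C4-2B and 0.252% and 0.248% in C4-2BENZR, a sum that was not tested.

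The cystine exchanger showed the lowest ratio among the 28 carriers. SLC7A11 was at 205 and 196 normalised reads in the C4-2B libraries and at 33.4 and 33.6 in the C4-2BENZR libraries. Both resistant libraries were far below both sensitive ones, and the gene fell 5.99-fold (log2 difference −2.55, SE 0.06, adjusted p = 1.55e-14). Its antisense gene SLC7A11-AS1 was at no more than 0.378 in any of these libraries. Neighbours of SLC7A11 on the same chromosome had smaller differences, with NOCT at 13.3 and 15.1 against 12.9 and 14.01, and ELF2 at 31.4 and 38.7 against 25.1 and 27.3. The heavy chain SLC3A2 was at 260 and 246 in C4-2B and at 141 and 141 in C4-2BENZR, and fell 1.79-fold (log2 −0.84, SE 0.05, adjusted p = 1.57e-09).

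All 4 tested carriers of large neutral amino acids fell. SLC7A5 was at 533 and 524 in C4-2B and at 276 and 274 in C4-2BENZR, a 1.92-fold decrease (log2 −0.94, SE 0.05, adjusted p = 8.54e-11). SLC43A1, a uniporter of branched-chain amino acids that works without SLC3A2, was at 205 and 210 and then at 76.2 and 75.4. It fell 2.74-fold (log2 −1.44, SE 0.06, adjusted p = 4.12e-12). SLC7A8 (LAT2) was at 148 and 143 against 88.9 and 95.4, and fell 1.58-fold (adjusted p = 1.42e-07). SLC43A2 (LAT4) changed least, from 103 and 97.9 to 91.2 and 82.9 (log2 −0.21, adjusted p = 0.0146). That last call was lost with total-read scaling (adjusted p = 0.185), without C4-2BENZR replicate 2 (0.198) and without C4-2B replicate 1 (0.0754).

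The cationic carriers SLC7A1 (CAT1) and SLC7A2 (CAT2), which import arginine and lysine, fell to a like extent. SLC7A1 was at 571 and 535 in C4-2B and at 265 and 267 in C4-2BENZR, 2.08-fold lower (log2 −1.05, SE 0.05, adjusted p = 3.94e-11). SLC7A2 was at 62.8 and 60.7 against 31.2 and 27.6, 2.10-fold lower (log2 −1.05, SE 0.09, adjusted p = 4.09e-08). The third of them tested, SLC7A6, which exchanges cationic for neutral amino acids, was at 79.3 and 81.6 against 80.05 and 75.8, with overlapping groups (adjusted p = 0.576).

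Both neutral exchangers of the SLC1 family fell, whereas the glutamate carrier SLC1A3 rose from a low level. SLC1A4 (ASCT1), which exchanges serine and alanine, was at 42.9 and 37.3 in C4-2B and at 9.07 and 7.76 in C4-2BENZR, and fell 4.76-fold (log2 −2.13, SE 0.13, adjusted p = 6.48e-10). SLC1A5 was at 265 and 259 against 165 and 161, and fell 1.61-fold (adjusted p = 1.18e-08). The glutamate carrier SLC1A3 was at 3.61 and 2.90 against 7.32 and 8.22, and rose 2.39-fold (log2 1.05, SE 0.18, adjusted p = 1.39e-04). SLC1A1, the other glutamate carrier, was at 0.670 and 0.569 (13 and 11 reads) against 4.35 and 4.86 (92 and 84 reads), and passed the filter through the resistant libraries alone.

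Of 7 tested SLC38 carriers, which couple glutamine and alanine to sodium, SLC38A1 fell and 5 did not pass the test, while SLC38A3 was higher but passed the filter through the resistant libraries alone. SLC38A1 was at 403 and 398 in C4-2B and at 306 and 309 in C4-2BENZR, and fell 1.30-fold (adjusted p = 4.82e-06). SLC38A2 was at 293 and 302 against 304 and 316, a log2 difference of 0.06 with a 95% interval of −0.05 to 0.16 (adjusted p = 0.344). With total reads as the only scaling SLC38A2 passed, at 0.16 (adjusted p = 0.00838). SLC38A9, a lysosomal arginine sensor, was at 10.8 and 12.9 against 14.7 and 14.998 (adjusted p = 0.0701), and passed with that scaling (0.0198) and without C4-2B replicate 2 (0.0288). SLC38A10 was at 128 and 109 against 118 and 108 (adjusted p = 0.468), with 0.0450 and a log2 difference of −0.18 without C4-2B replicate 2. SLC38A3, which exports or imports glutamine, was at 0.258 and 0.155 (5 and 3 reads) against 4.87 and 5.73 (103 and 99 reads).

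Among the SLC6 carriers, which use sodium and chloride, the creatine carrier SLC6A8 was the most abundant and the glycine carrier SLC6A9 changed most among those above 1 in all 4 libraries. SLC6A8 was at 244 and 253 in C4-2B and at 240 and 237 in C4-2BENZR (log2 −0.06, 95% interval −0.17 to 0.05, adjusted p = 0.350). SLC6A9 was at 41.5 and 42.2 against 16.96 and 17.7, and fell 2.42-fold (log2 −1.23, SE 0.10, adjusted p = 3.07e-08). The GABA carrier SLC6A11 was at 28.0 and 24.3 against 12.7 and 10.3, and fell 2.28-fold (adjusted p = 2.44e-06). The taurine carrier SLC6A6 went the other way, from 11.97 and 11.4 to 24.9 and 26.5, and rose 2.20-fold (log2 1.07, SE 0.12, adjusted p = 1.43e-06).

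The pair of proton-coupled carriers diverged. SLC36A4 was at 16.97 and 17.3 in C4-2B and at 7.75 and 6.60 in C4-2BENZR, and fell 2.39-fold (log2 −1.15, SE 0.15, adjusted p = 4.88e-06). SLC36A1 was at 39.2 and 40.4 against 50.8 and 49.1, and rose 1.26-fold (log2 0.32, SE 0.08, adjusted p = 0.00290). Across the SLC families, 4 of the 7 carriers that rose (SLC1A1, SLC38A3, SLC6A12 and SLC6A16) passed the filter through the resistant libraries alone, so they had to differ and support no count. With a minimum of 5 in 2 libraries the count that rose was 3. Without either C4-2BENZR replicate these 4 cannot reach 1 in 2 libraries, so they drop out by construction. The betaine carrier SLC6A12, at 0.258 and 0.569 against 1.32 and 1.22 (adjusted p = 0.0227), also missed the threshold in DESeq2 (adjusted p = 0.0833) and without C4-2B replicate 1 (adjusted p = 0.146). SLC38A4 and SLC6A17 were listed but too low to test.

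**Figure D2:**
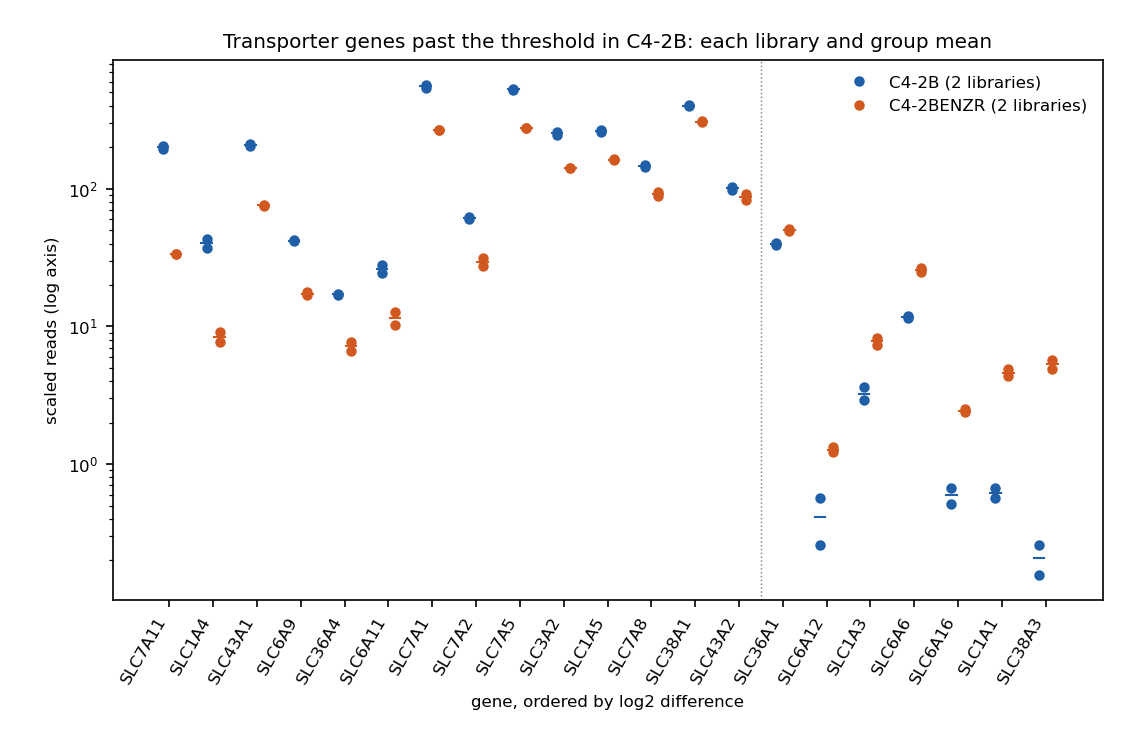
Normalised reads (log axis) of the 21 carriers past the threshold, ordered by log2 difference, with each C4-2B (blue) and C4-2BENZR (orange) library as a point and the group mean as a bar. Left of the dotted line the 14 that fell lie between 6.60 and 571, and right of it the 7 that rose lie at or below 50.8.

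Because several of the carriers that fell are known ATF4 targets, RefSeq promoter windows (GRCh38.p14, 250 bases before to 50 after a start) were searched on both strands for the amino acid response element TGATGNAA. Windows were matched by symbol for 31 of the 42 carriers, with no match for SLC1A2, SLC38A3, SLC3A1, SLC43A3, SLC6A12, SLC6A15, SLC6A3, SLC6A6, SLC7A11, SLC7A2 and SLC7A4. The element was in 6 of their 52 windows (11.5%) and in 3.62% of all 35116 windows. The 6 carriers were SLC1A3, SLC1A4, SLC1A5, SLC38A1, SLC3A2 and SLC7A1, of which 5 fell in C4-2BENZR and 1, SLC1A3, rose. A carrier counted as matched if any of its windows held the element. All of these except SLC7A1 also had windows at other starts without a match, and the SLC1A5 match was at its most downstream start. Which start these cells use was not tested. Of the 17 tested carriers with a window and no such match, 7 fell and 3 rose. The windows of the 4 with a match that fell 1.5-fold or more follow, 5′ to 3′ on the gene's strand, with the match or its reverse complement in capitals. They are at chr2:64989149-64989448 (plus strand, SLC1A4), chr19:46784765-46785064 (minus strand, SLC1A5), chr11:62881449-62881748 (plus strand, SLC3A2) and chr13:29595639-29595938 (minus strand, SLC7A1).
SLC1A4 promoter: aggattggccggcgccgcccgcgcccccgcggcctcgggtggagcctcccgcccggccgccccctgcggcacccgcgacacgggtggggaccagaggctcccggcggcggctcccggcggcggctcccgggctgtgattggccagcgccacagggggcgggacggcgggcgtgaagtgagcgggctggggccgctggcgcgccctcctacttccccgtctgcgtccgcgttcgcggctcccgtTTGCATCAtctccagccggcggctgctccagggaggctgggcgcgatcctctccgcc
SLC1A5 promoter: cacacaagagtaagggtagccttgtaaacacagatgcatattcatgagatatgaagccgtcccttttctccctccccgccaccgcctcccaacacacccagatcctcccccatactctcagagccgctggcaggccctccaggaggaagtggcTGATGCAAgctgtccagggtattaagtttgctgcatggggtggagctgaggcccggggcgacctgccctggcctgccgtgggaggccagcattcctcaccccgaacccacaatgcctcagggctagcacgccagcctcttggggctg
SLC3A2 promoter: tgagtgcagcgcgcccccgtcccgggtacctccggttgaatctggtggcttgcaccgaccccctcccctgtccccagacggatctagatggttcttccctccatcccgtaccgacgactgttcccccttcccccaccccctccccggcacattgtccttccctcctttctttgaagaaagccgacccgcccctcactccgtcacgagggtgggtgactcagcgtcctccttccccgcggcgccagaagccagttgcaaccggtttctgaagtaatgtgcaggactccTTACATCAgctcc
SLC7A1 promoter: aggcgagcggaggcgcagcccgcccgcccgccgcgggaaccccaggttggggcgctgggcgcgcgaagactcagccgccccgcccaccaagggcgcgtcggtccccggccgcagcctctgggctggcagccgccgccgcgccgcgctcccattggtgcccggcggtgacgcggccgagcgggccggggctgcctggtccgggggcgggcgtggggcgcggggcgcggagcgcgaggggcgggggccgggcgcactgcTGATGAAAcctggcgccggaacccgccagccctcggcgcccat
The match lay on the reverse strand in SLC1A4 and SLC3A2 and on the gene's strand in SLC1A5 and SLC7A1. The antioxidant response element TGACNNNGC was in 13.5% of the carriers' windows and 13.3% of all windows, and the E-box CACGTG was in 17.3% and 7.26%. Of 6 tested carriers with the antioxidant element 4 fell and 1 rose, beside 8 lower and 3 higher of 17 without it. For the E-box 4 of 7 fell and 2 rose with a match, and 8 of 16 fell and 2 rose without one. A match is a run of letters and not a binding site.

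In CWR-R1 there was 1 library on each side and so no replicate check. SLC7A11, SLC3A2 and SLC7A5 were under 1.5-fold apart, while the cationic carrier SLC7A2 and the glutamate carrier SLC1A1 were lower. Of 33 carriers listed, 28 had at least 5 normalised reads in 1 of both libraries. In CWR-R1ENZR 2 of them were 2-fold or more higher and 8 lower, beside 9.79% higher and 10.3% lower among all 12462 genes compared (20.1% either way). Of the 8 lower, 4 (SLC1A2, SLC1A3, SLC6A3 and SLC7A2) reached 5 in CWR-R1 alone, so they passed the minimum through the library where they were high and support no count. SLC7A11 was at 57.1 normalised reads in the sensitive library and 72.1 in the resistant one (ratio 1.26, 95% counting interval 1.15 to 1.38). SLC3A2 was at 142 and 157, and SLC7A5 at 291 and 247 (ratio 0.849, interval 0.812 to 0.887). These intervals, like all for single libraries, are Clopper-Pearson and cover counting error only.

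The cationic carrier SLC7A2 and the glutamate carrier SLC1A3 had the widest differences in that pair. SLC7A2 was at 53.7 normalised reads in CWR-R1 against 2.41 in CWR-R1ENZR, 22.3-fold lower (interval 15.9 to 32.0). The 3 listed glutamate carriers were lower, but SLC1A2 and SLC1A3 passed the minimum through CWR-R1 alone and support no count. SLC1A3 was at 20.9 and 1.88 (11.1-fold, interval 7.56 to 17.1), SLC1A2 at 10.5 and 2.61 (4.001-fold), and SLC1A1 at 43.7 and 14.9 (2.92-fold). In C4-2BENZR the 2 of these that were listed, SLC1A1 and SLC1A3, were higher, where SLC1A1 passed the filter through the resistant libraries alone.

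The remaining lower carriers in CWR-R1ENZR belonged to several families. The dopamine carrier SLC6A3 was at 22.6 and 4.16 (5.44-fold lower), SLC43A1 at 33.3 and 7.17 (4.64-fold) and SLC7A8 at 15.6 and 5.76 (2.70-fold). SLC1A5 was at 244 and 118 (2.06-fold, interval 1.94 to 2.18). The 2 higher carriers were SLC38A7, a lysosomal glutamine exporter, at 24.5 and 53.7 (2.19-fold), and SLC43A2 at 23.9 and 49.6 (2.08-fold). Below the 2-fold mark, SLC38A2 was the most abundant carrier in both libraries and went from 515 to 852 (ratio 1.65, interval 1.61 to 1.70). SLC6A6 was at 159 and 236, and SLC6A8 at 140 and 188. The median log2 difference over the 28 was −0.03, beside −0.02 over all genes compared.

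Against VCaP, the library labelled VCaPENZR had SLC7A5, SLC7A11 and SLC6A6 higher and SLC7A2 and SLC36A1 lower. Of 38 listed, 34 were compared, and 10 were 2-fold or more higher and 14 lower, beside 21.1% higher and 22% lower among all 12502 genes (43.1% either way). Of the 10 higher, 5 reached 5 in the library labelled VCaPENZR alone, and of the 14 lower, 11 did so in VCaP alone. These 16 passed the minimum through the library where they were high, and support no count. SLC7A5 was at 1.88 (33 reads) in VCaP and at 475 in the library labelled VCaPENZR, a ratio of 253 (interval 180 to 367). SLC7A11 was at 10.2 and 99.1 (9.72-fold higher) and SLC3A2 at 112 and 233 (2.08-fold higher), so both chains of the cystine exchanger were higher. SLC6A6 was at 26.0 and 411 (15.8-fold), SLC6A12 at 0.683 and 33.1 (48.5-fold), and SLC38A2 at 146 and 400 (2.74-fold). The neutral amino acid carrier SLC6A15 had 1 read in VCaP and a level of 28.0 in the other library (ratio 493, interval 87.99 to 19498). The other 3 higher carriers were SLC38A3 (1.48 and 18.4), SLC6A9 (2.73 and 27.7) and SLC1A1 (6.55 and 34.4).

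SLC7A2 and SLC36A1, the top pair per kilobase in VCaP, were among the lower carriers. SLC7A2 was at 416 in VCaP and 3.22 in the library labelled VCaPENZR, 129-fold lower (interval 99.03 to 172). SLC36A1 was at 303 and 12.4 (24.4-fold lower). The vesicular neutral amino acid carrier SLC6A17 was at 44.6 and 0.417 (107-fold), and SLC6A11 was at 27.6 and 0.179 (3 reads). No read was found in the library labelled VCaPENZR for 7 of the 38. Of these, SLC7A14 was at 26.6 in VCaP (at least 149-fold lower against a floor of 3 reads) and SLC3A1, the heavy chain of the renal cystine carrier, at 16.9 (at least 94.3-fold). SLC43A3, a nucleobase carrier of the LAT3 family, was at 10.6 (at least 59.3-fold), the intestinal and renal neutral carrier SLC6A19 at 9.91 (at least 55.5-fold) and SLC38A11 at 9.79 (at least 54.8-fold). SLC6A4, the serotonin carrier, and SLC7A4 had levels under 5 in VCaP. The glutamate carrier SLC1A7 was at 5.98 in VCaP and had 1 read in the other library (100-fold lower, interval 17.6 to 4003). SLC7A8 (30.3 and 3.16), SLC43A1 (25.9 and 3.22), SLC36A4 (46.5 and 7.44) and SLC43A2 (50.8 and 18.6) completed the lower set.

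Set beside the CWR-R1 libraries, the library labelled VCaPENZR differed in fewer carriers. Against CWR-R1, 7 of 27 compared were 2-fold or more apart, 2 higher and 5 lower, where 20.8% of all genes were (7.73% higher, 13% lower). Against CWR-R1ENZR the count was 8 of 25, 3 higher and 5 lower, where 14.2% of all genes were (3.95% higher, 10.3% lower). Against VCaP it was 24 of 34. Against CWR-R1, all of those 2-fold apart except SLC6A6 reached 5 in 1 library alone. So did SLC6A12 and SLC6A16 against CWR-R1ENZR. These passed the minimum through the library where they were high, and support no count. SLC7A5 was at 475 against 291 (CWR-R1) and 247 (CWR-R1ENZR), and SLC7A11 at 99.1 against 57.1 and 72.1, all under 2-fold. SLC3A2 was at 233 against 142 and 157, SLC6A9 at 27.7 against 23.3 and 21.8, SLC6A15 at 28.0 against 42.6 and 31.5, and SLC38A3 at 18.4 against 13.8 and 26.1. SLC36A1 was at 12.4 against 21.99 and 20.4, and SLC6A17 at 0.417 against 0.945 and 1.41. Apart from SLC6A17, which was under 5 in each of these 3 libraries, none of the 6 was 2-fold apart. SLC7A2, at 3.22, was close to the 2.41 of CWR-R1ENZR. SLC6A12 was the exception that was higher against all 3 libraries, at 33.1 against 0.683, 0.202 and 1.14, and SLC6A6 at 411 was 2.58-fold above CWR-R1 and 1.74-fold above CWR-R1ENZR. SLC1A1 (2.30-fold) and SLC1A5 (2.01-fold) were the others above CWR-R1ENZR. The lower ones were SLC43A1, SLC7A2, SLC7A8, SLC1A2 and SLC6A16 against CWR-R1, and SLC36A4, SLC38A2, SLC38A7, SLC43A2 and SLC6A16 against CWR-R1ENZR.

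**Figure D3:**
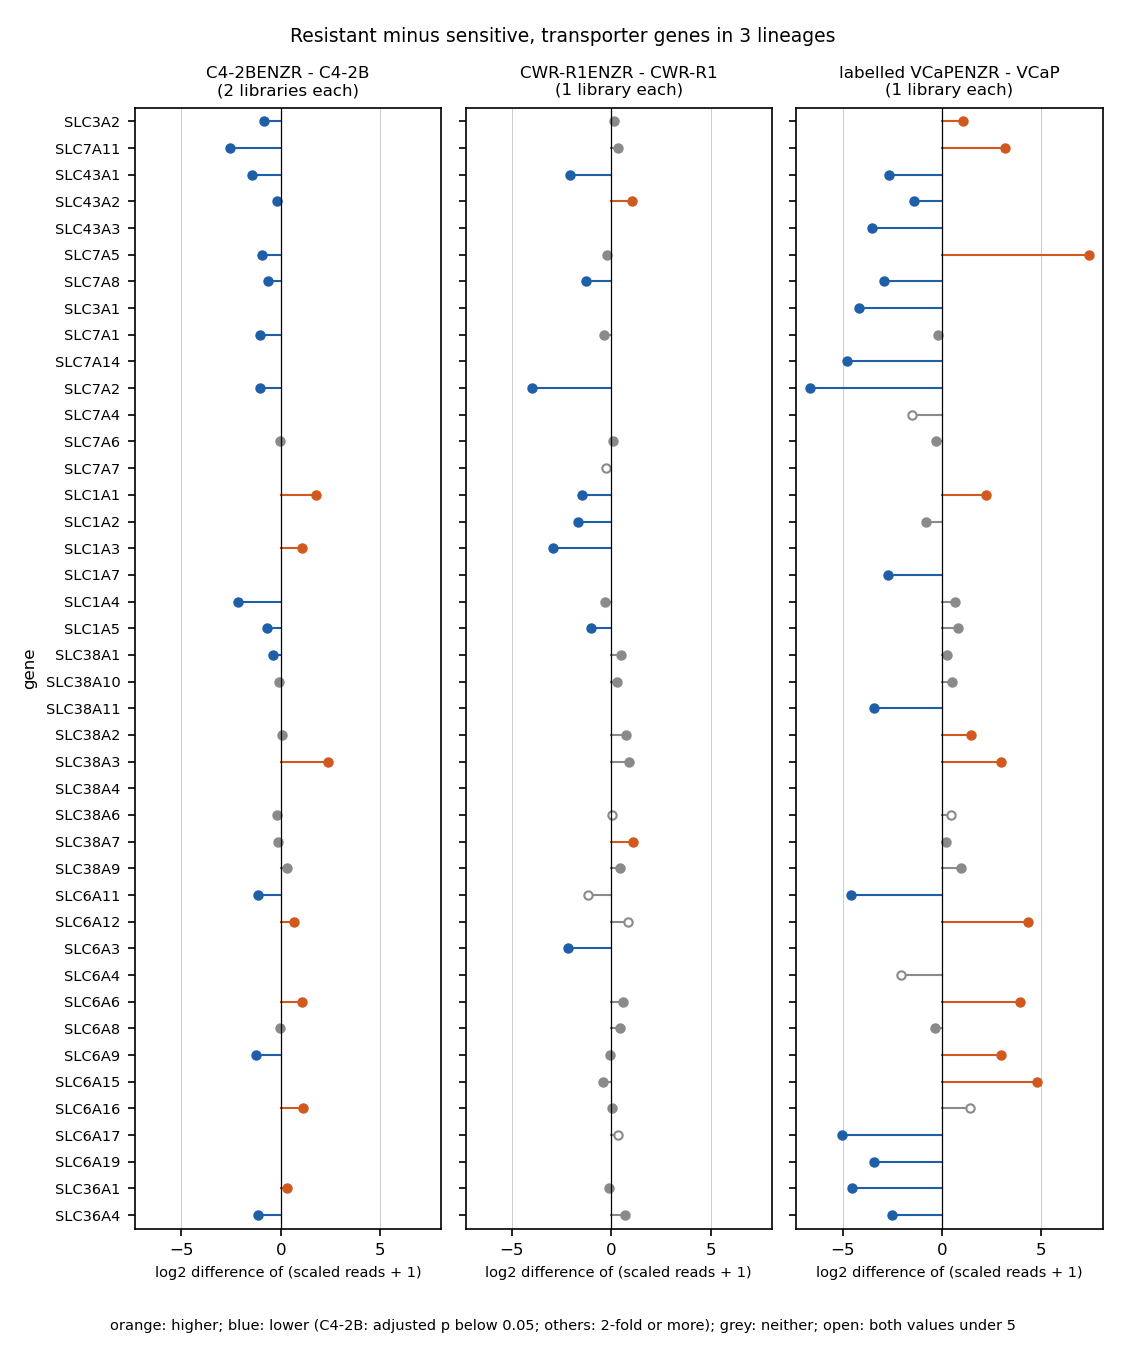
Log2 difference of normalised reads + 1, labelled resistant minus sensitive, for each carrier (rows) in C4-2B (left, 2 libraries a group), CWR-R1 (middle) and VCaP (right, 1 library a group). Orange is higher and blue lower (adjusted p below 0.05 on the left, 2-fold or more elsewhere), grey is neither, and open points had both values under 5. SLC43A1 and SLC7A2 lie left of 0 in all 3 panels, and SLC7A5, SLC7A11 and SLC3A2 lie left in C4-2B and right in VCaP.

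Across lineages, 2 carriers were 2-fold or more lower in all 3 labelled resistant lines, SLC43A1 and SLC7A2, of the 23 compared in each, and the same 2 were so without the VCaP libraries. Among the 11208 genes compared in all 3 lineages, 0.357% were 2-fold or more lower in each. Without the VCaP libraries 25 carriers were compared, and 0.686% of 11667 genes were 2-fold or more lower in both lineages. SLC7A2 reached 5 in the sensitive library alone in both single-library pairs, and SLC43A1 did so in VCaP. Those directions were fixed by the minimum and support no count. The library labelled VCaPENZR also correlated at 0.940 with CWR-R1ENZR over the shared genes, so it may not be a separate lineage. SLC43A1 was 2.74-fold lower in C4-2BENZR, 4.64-fold lower in CWR-R1ENZR and 8.06-fold lower in the library labelled VCaPENZR. SLC7A2 was 2.10-fold, 22.3-fold and 129-fold lower. In C4-2B, SLC7A2 lies near the 2-fold mark on the log2 of value + 1 scale, and the count was 1 with total reads as the only scaling or without C4-2BENZR replicate 2. SLC7A8 was lower in all 3 as well, 1.58-fold, 2.70-fold and 9.62-fold. SLC6A11 was under 5 in both CWR-R1 libraries (2.36 and 0.469) and was not compared there. None of the 23 carriers was 2-fold or more higher in all 3.

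**Figure D4:**
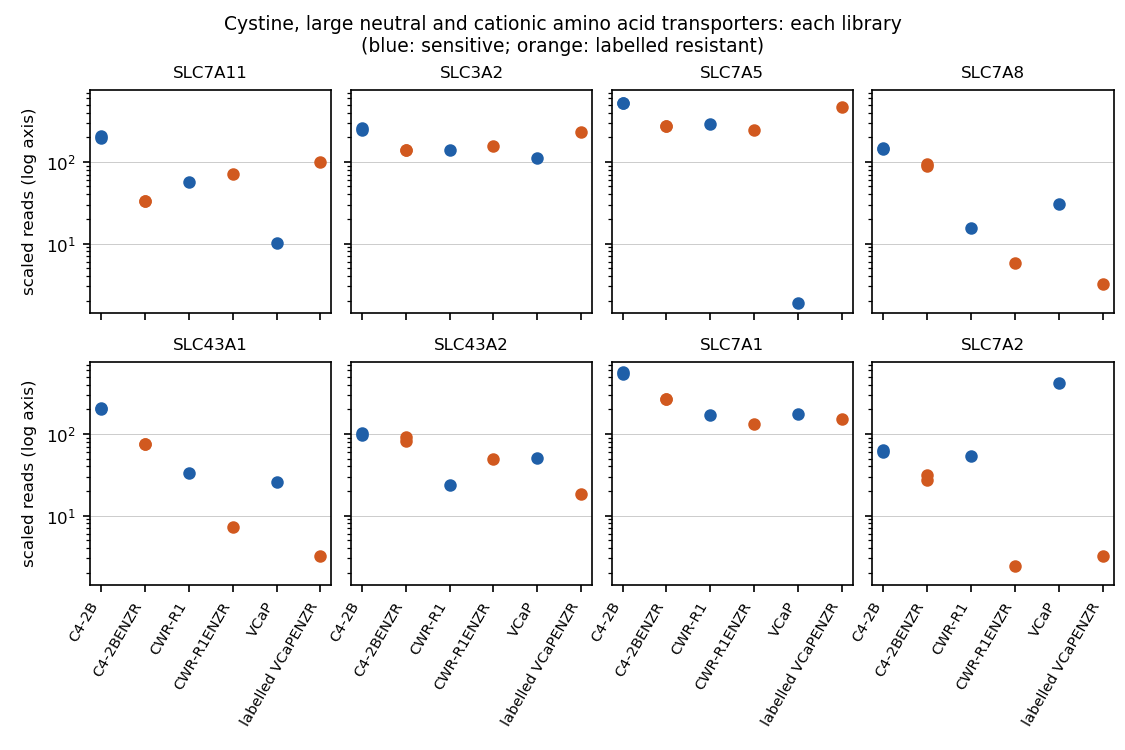
Normalised reads (log axis) of 8 cystine, large neutral and cationic amino acid carriers in each library, sensitive in blue and labelled resistant in orange, with 2 points for each C4-2B group. SLC43A1, SLC7A8 and SLC7A2 are lower in each labelled resistant line than in its sensitive line, and SLC7A5 is at 1.88 in VCaP and at 247 or above in the other 7 libraries.

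Genes that act around these carriers were counted in the same fits. In C4-2B, ATF4 and its regulators had 10 of 18 lower and 1 higher (median log2 −0.50), beside 29% lower and 27.8% higher of all genes tested. ATF4 itself fell from 601 ± 19.7 to 355 ± 17.5 (SD, n = 2; adjusted p = 3.17e-09 in limma). The pseudokinase TRIB3 fell from 186 ± 1.82 to 56.8 ± 1.53, CEBPG from 120 ± 1.47 to 44.8 ± 0.415 and the mTORC1 inhibitor DDIT4 from 300.4 ± 8.50 to 122 ± 4.46 (largest adjusted p of these 3 3.59e-11). The kinase EIF2AK2 rose, from 23.5 ± 0.351 to 32.3 ± 2.48 (adjusted p = 0.00157).

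Cytosolic aminoacyl-tRNA synthetases, which charge tRNAs with the imported amino acids, had 14 of 18 lower and none higher in C4-2BENZR (median −0.36), where 29% of all genes were lower and 27.8% higher. IARS fell from 504 ± 11.9 to 305 ± 1.06, YARS from 279 ± 12.3 to 179 ± 5.85 and LARS from 236 ± 1.67 to 153 ± 3.598. Amino acid synthesis had 12 of 26 lower and 6 higher (median −0.19). The alanine aminotransferase GPT fell from 17.1 ± 0.701 to 4.54 ± 0.196, asparagine synthetase ASNS from 263 ± 24.2 to 104.8 ± 9.42 and the serine enzyme PSAT1 from 451 ± 23.9 to 186 ± 1.64. Glutamine synthetase GLUL rose from 189 ± 4.82 to 371 ± 10.9 (limma adjusted p = 1.40e-10).

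Genes of glutathione and cystine use had 9 of 12 lower and 2 higher in C4-2BENZR (median −0.38), beside the 29% lower and 27.8% higher of all genes. GGT1, which starts the breakdown of extracellular glutathione, fell from 191 ± 0.797 to 53.0 ± 1.90, CHAC1, which degrades glutathione in the cytosol, from 29.5 ± 2.52 to 7.89 ± 0.468, and CTH, which makes cysteine, from 15.6 ± 0.618 to 6.51 ± 0.455. CHAC2 rose, from 6.23 ± 0.637 to 11.02 ± 1.62. The mTORC1 sensing list was split evenly, with 7 of 27 lower and 7 higher (median −0.03), near those shares. On the log2 scale its largest rise was in RRAGB, from 5.04 ± 0.561 to 12.8 ± 0.708, and its largest fall in MLST8, from 180 ± 6.26 to 104.6 ± 2.48 (SD, n = 2).

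Carriers of amino acids outside the 7 families had 8 of 20 higher and 6 lower in C4-2BENZR (median 0.18), where 27.8% of all genes were higher and 29% lower. The peptide carrier SLC15A2 rose from 2.58 ± 0.883 to 6.47 ± 0.927, and the lysosomal sialic acid and acidic amino acid carrier SLC17A5 fell from 19.1 ± 0.573 to 8.22 ± 0.000668. Of 7 partner and trafficking genes 3 rose and 2 fell. SGK1, a kinase known to keep several of these carriers at the surface, rose from 4.91 ± 0.378 to 39.9 ± 3.77 (log2 2.79, adjusted p = 4.84e-11 in limma), and TXNIP rose from 62.3 ± 3.59 to 124 ± 0.406. NEDD4L, a ubiquitin ligase of membrane carriers, fell from 332 ± 13.5 to 267 ± 3.45. SGK1 was higher in CWR-R1ENZR too, at 9.92 and 21.0 in CWR-R1 and CWR-R1ENZR. In VCaP and the library labelled VCaPENZR it was at 2.50 and 21.2, and reached 5 in the latter alone. That library correlated at 0.940 with CWR-R1ENZR over the shared genes, so it may not be a separate case. SGK1 was named after its values were seen.

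In CWR-R1ENZR, beside the 20.1% of all genes past 2-fold, none of the 18 synthetases was 2-fold apart from CWR-R1, and 3 of the 18 ATF4 genes were lower and 1 higher. DDIT4 was at 65.9 and 363, and NUPR1 at 226 and 63.7. Of 26 synthesis genes 5 were lower, with PHGDH, the first enzyme of serine synthesis, at 346 and 117 and BCAT2 at 186 and 57.7, and 1 was higher, ARG2, at 13.0 and 27.4. Of 11 genes of glutathione and cystine use, GGT1 was lower (103 and 19.5) and CHAC1 higher (2.97 and 11.3). Of 20 other carriers, SLC16A10, which exports aromatic amino acids, was lower (14.2 and 3.48), and SLC25A29 (68.8 and 196) and SFXN3 (78.0 and 163) were higher. Of 27 mTORC1 sensing genes 2 were higher and 1 lower, and of 7 partner genes 2 and 1, with TXNIP at 37.0 and 238.

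In the library labelled VCaPENZR, beside the 43.1% of all genes past 2-fold, 8 of 18 ATF4 genes were higher than in VCaP and 3 lower, and 7 of 18 synthetases were higher and none lower. ATF4 was at 269 and 625, ATF3 at 2.45 and 101, and ASNS at 51.0 and 205. CARS was at 26.1 and 136, and AARS at 134 and 634. Of the 23 other carriers 7 were lower and 4 higher, with SLC15A2 at 112 and 0.595 and the vesicular glutamate carrier SLC17A7 at 0.114 (2 reads) and 39.2. Synthesis genes had 7 of 25 higher and 5 lower, and mTORC1 sensing genes 2 of 27 higher and 7 lower. Partners had 2 of 7 higher and 1 lower, and genes of glutathione and cystine use 2 of 11 higher and 3 lower. GGT1 was lower in this pair as well (175 and 12.9), as in C4-2B and CWR-R1. These values rest on the same library whose carriers correlated most with CWR-R1ENZR. Against CWR-R1 and CWR-R1ENZR in place of VCaP, 2 and 3 of its 18 ATF4 genes were 2-fold or more higher and 1 and 0 lower. Its synthetases had 0 and 2 higher and 0 and 1 lower. ATF4 was at 625 against 376 and 462, AARS at 634 against 420 and 213, and GGT1 at 12.9 against 103 and 19.5.

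**Figure D5:**
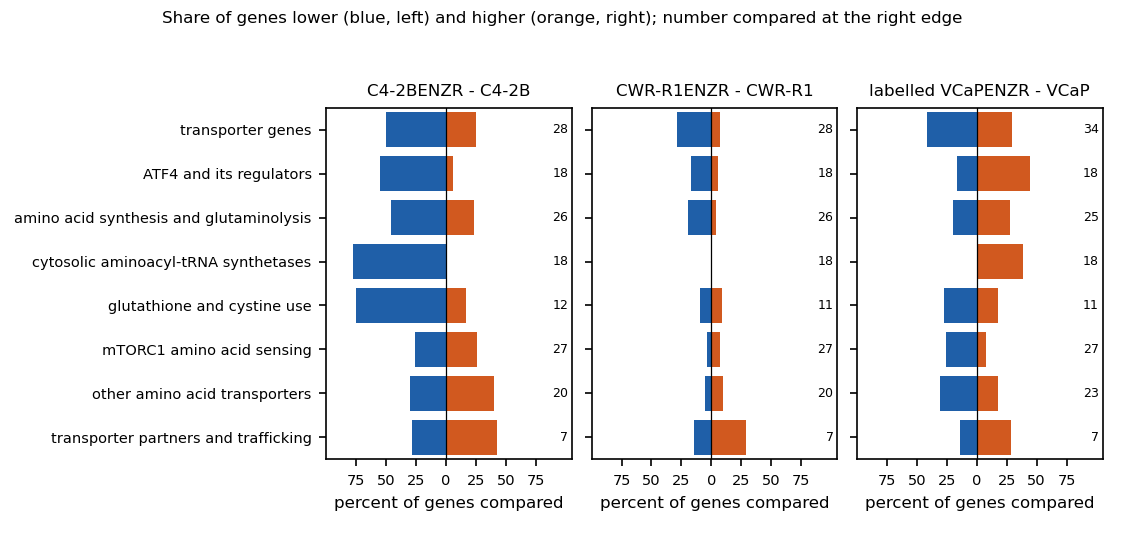
Percent of genes lower (blue, left) and higher (orange, right) among the carriers and 7 lists of genes that act around them, in C4-2B (adjusted p below 0.05), CWR-R1 and VCaP (2-fold or more), with the number compared at the right edge of each row. In C4-2B the synthetases reach 14 of 18 lower, in CWR-R1 none is 2-fold apart, and in VCaP 7 of 18 are higher.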

How the data were processed

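Deposited tables, 1 per lineage, give for each gene a signal per library, that is, reads divided by a library factor, as deposited. The authors' signed fold (a score) and p-value columns, also deposited, were not used. Per the submitters' processing notes, reads were placed on hg19. For aligner, counter, annotation and strand, the entry is not given in the sources used here, so overlapping antisense genes cannot be separated. In every library 100% of values came out as whole reads within 0.02 of a read. Library totals were 14503586 to 20248655 reads in listed genes, and no value column was left unmapped (0).

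C4-2B was tested on log2(value + 1) with limma 3.58.1 (R 4.3.3), trend, 2 against 2 libraries, two-sided, for genes reaching 1 in 2 libraries, Benjamini-Hochberg over all genes, threshold 0.05. The pseudocount understates changes of low genes. Single libraries were compared as log2 ratios of value + 1 for genes of at least 5 in 1 of both, counted at 2-fold, with 95% Clopper-Pearson intervals and a floor of 3 reads. Levels per kb used merged exons of GENCODE 29 (GRCh38, not the authors' build). Promoters are from RefSeq. edgeR 4.0.16 and DESeq2 1.42.0 on recovered reads, other scalings, filters, pseudocount 0.25, a replicate block and leaving out each library were alternatives, and the fit was tested on simulated data.

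Named carriers are those of mean at least 1 that passed with 1.5-fold in C4-2B, those 2-fold apart with at least 5 in 1 library elsewhere, SLC7A11, SLC7A5 and SLC3A2, and the most abundant of each role; SLC38A9, SLC38A10, SLC7A6, SLC36A1 and the carriers at 0 were named after their values were seen. Of other lists (168 genes, 151 listed), up to 4 with the largest change and the largest the opposite way are named, with ATF4, SGK1, GGT1 and AARS added after seeing values. The carriers and lists were chosen with earlier results of these data known.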

Additional observations from a re-analysis of the deposited data

Results flagged for a closer look

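Carriers past the threshold in C4-2B, or 2-fold or more apart in CWR-R1 or VCaP, on both sides of a pair of lineages, were compared by sign. For those named below, the log2 difference between labelled resistant and sensitive libraries had opposite signs, in every library on each side. The share of all genes with opposite signs was not counted, so their number is not read as a result. These differences between lineages were not tested, and each CWR-R1 and VCaP value rests on 1 library a side.

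Against C4-2B, CWR-R1 was opposite for SLC1A1 (−1.49 in CWR-R1, 1.79 in C4-2B), SLC1A3 (−2.93 and 1.05) and SLC43A2 (1.02 and −0.21). The C4-2B call of SLC43A2 was lost with total reads as the only scaling (limma adjusted p = 0.185). SLC1A1 passed the C4-2B filter through the resistant libraries alone, so its direction there was fixed by the filter. SLC1A3 reached 5 in the sensitive CWR-R1 library alone, so its direction in that pair was likewise fixed by the minimum. Against C4-2B, the VCaP pair was opposite for SLC7A5 (7.37 in VCaP, −0.94 in C4-2B), SLC7A11 (3.16 and −2.55), SLC6A9 (2.95 and −1.23), SLC3A2 (1.05 and −0.84) and SLC36A1 (−4.50 and 0.32). Between VCaP and CWR-R1, SLC1A1 (2.23 and −1.49) and SLC43A2 (−1.40 and 1.02) were opposite. SLC7A5 and SLC6A9 reached 5 in the library labelled VCaPENZR alone, so their direction in the VCaP pair was fixed by the minimum. The VCaP values rest on the library labelled VCaPENZR; against CWR-R1 in place of VCaP, its SLC7A5 and SLC7A11 levels were under 2-fold apart.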

How the results depend on the processing

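Over 12 other fits, 21 of the 28 tested carriers kept direction and call in C4-2B wherever they were tested, and 7 did not in some fit. The carriers called higher went from 7 to 3 with a minimum of 5 in 2 libraries, a filter that drops the 4 low ones by construction, and ranged from 3 to 8 with 1 library left out (a lone library is then assumed to vary like the other group); those called lower ranged from 13 to 15. All genes called went from 3691 higher and 3856 lower to 4757 and 2923 under total-read scaling, where 9 carriers were called higher and 13 lower. With total reads as the only scaling, which moves the median of all genes to 0.10 in C4-2B and in VCaP and 0.06 in CWR-R1, SLC38A10, SLC6A8 and SLC7A6 changed sign, at 0.0354, 0.0438 and 0.0546, none past the threshold. SLC38A10 was at 0.0474 without C4-2B replicate 1 and −0.179 without C4-2B replicate 2. The library labelled VCaPENZR had 2 carriers higher and 5 lower with CWR-R1 in place of VCaP, against 10 and 14. With CWR-R1, all of them except SLC6A6 reached 5 in 1 library alone. With VCaP, 5 of the 10 and 11 of the 14 did. Carriers 2-fold apart in all 3 lineages went from 2 to 1 with total-read scaling or without C4-2BENZR replicate 2, alternatives chosen after seeing the data; the cause was not tested.

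With the replicate number as a block, 7 carriers were higher and 14 lower, and no carrier's call changed; all genes gave 4036 and 4212. Replicate deviations correlated at 0.05 across 13280 genes, so the shared numbers were not taken to pair the libraries. Depth limits carriers near 1 normalised read, such as SLC6A12 and SLC6A16, and single-library ratios carry counting error only.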

Other observations

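SLC7A5 in VCaP stood with a low neighbour. KLHDC4, the next listed gene on one side, was at 3.98 in VCaP and at 27.1 to 35.3 in the other 7 libraries, and BANP, on the other side, was at 10.4 in VCaP, 11.2 in the library labelled VCaPENZR, 12.3 in CWR-R1 and 25.3 and 25.2 in C4-2B. ZCCHC14, further out, was at 17.1 in VCaP and at 35.8 to 85.0 elsewhere. SLC7A2 in CWR-R1ENZR stood beside MTUS1, at 93.9 in CWR-R1 against 20.04 in CWR-R1ENZR, while CNOT7 was at 120 and 97.0.

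SLC6A10P, a copy nearly identical to the creatine carrier SLC6A8, was at 0 in VCaP, 89.7 in the library labelled VCaPENZR, 26.9 in CWR-R1, 117 in CWR-R1ENZR, and at 0.309 and 0 in C4-2B and 3.69 and 5.73 in C4-2BENZR. The authors' counting could split reads between the copy and SLC6A8, so the level of SLC6A8 is uncertain by that amount. The SLC7A5 copies SLC7A5P1 and SLC7A5P2 were at no more than 1.97 and 4.73 in any library.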
